A study of Mus musculus with 4 samples.

Results

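Control LSK cells of the mouse were described from the arrays that the study read for them, control 1 and control 2, which are 2 of its 4 arrays. LSK cells are bone marrow cells that carry c-Kit and Sca-1 and lack the surface markers of mature blood lineages. The study set such cells from Ezh1 knockout mice, read on the other 2 arrays, against control cells. The control arrays carry the group label control and the strain C57Bl/6J, with no genotype, age or sex, and the labels do not say whether the 2 control samples came from separate animals, so the spread between them may be technical. Total RNA, available in amounts of 0.1 to 5 ng, was amplified, labelled with Cy3 and hybridised to Agilent oligonucleotide arrays read in 1 colour. No knockout array entered any step below, and with 2 arrays of 1 group no difference was tested.

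The LSK fraction holds the blood-forming stem cells and the multipotent progenitors that descend from them. Stem cells within it are mostly quiescent, whereas the multipotent progenitors, which make up most of the fraction, divide and supply the myeloid, lymphoid and erythroid lineages. Kit encodes c-Kit, the receptor for stem cell factor, Ly6a encodes Sca-1, and Cd34 and Flt3 mark the progenitor end of the fraction more than its stem cells. Early progenitors are known to transcribe genes of several lineages at low level before they commit, which makes lineage genes of interest here even in a fraction sorted to lack mature cells.

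Each array held 55677 probes, of which 33323 carried a gene symbol and stood for 24287 genes. Intensities ran from 6.45 to 510715 on control 1 and from 9.47 to 479910 on control 2, and the brightest 1% of probes held 39.6% and 42.0% of the summed signal. Each gene was taken at its brightest probe, as log2 intensity minus its array's 75th percentile (1594 on control 1, 1531 on control 2), called scaled signal below. Genes were then placed in bands by where that probe stood among all probes of the array. Bright genes lay above the 90th percentile on both arrays (intensities of 6278 and 5504), and dim-end genes at or under the 20th percentile on both (12.4 and 57.6). Moderate genes lay above the median probe (253.5 and 340.3) on both arrays without being bright, lower genes at or under it on both without being at the dim end, and split genes on opposite sides of it. A probe's intensity depends on its own sequence as well as on the amount of its target, so a band is a property of a gene's probe and does not rank transcripts.

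Of the 24287 genes, 2763 were bright (11.4%), 9815 moderate (40.4%), 6598 lower (27.2%), 3403 at the dim end (14.0%) and 1708 split (7.03%). These shares are the background for every count of list members below. The median intensity of the bright genes was 13748 on control 1 and 11624 on control 2, and that of the dim-end genes was 7.81 and 12.3. The latter lie close to the lowest intensity read on each array, so the genes of this band have no usable order. The bands of all lists and families are drawn in the stacked bar chart.

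**Figure D1:**
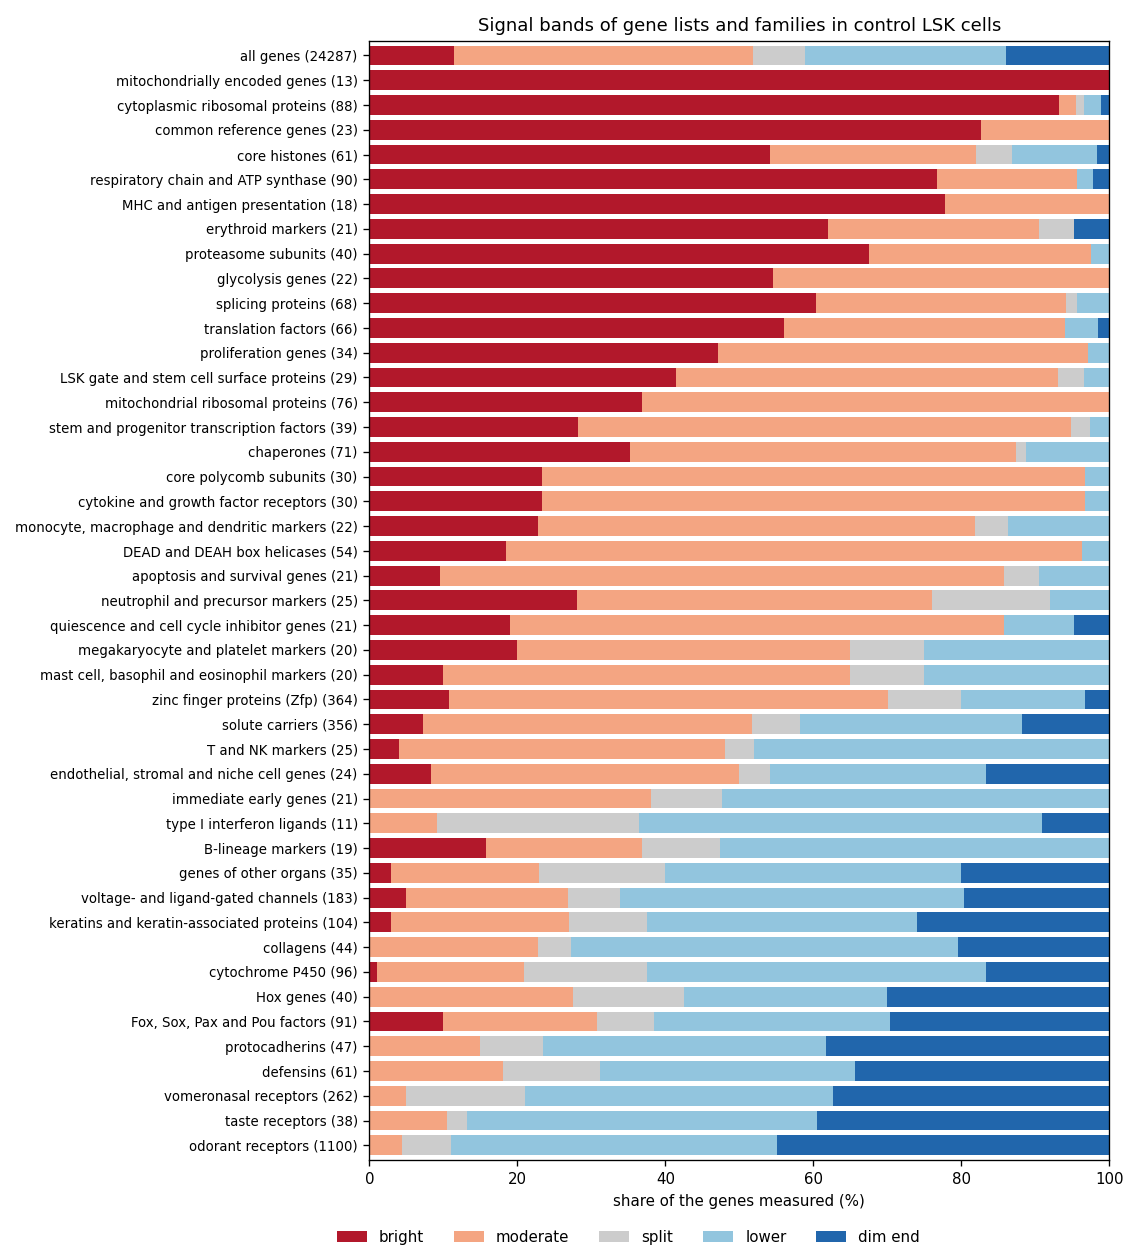
Share of measured genes in each signal band (x axis, percent) for the gene lists and families of more than 10 genes, with the number of genes measured in parentheses and all 24287 genes in the top row. Rows are ordered by median rank: protein synthesis and energy genes are mostly bright (82 of 88 cytoplasmic ribosomal proteins), and 494 of 1100 odorant receptors are at the dim end.

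The genes that define the sort and its stem and progenitor content were read well above the median probe on both arrays. Kit, on chromosome 5, gave 13819 on control 1 and 9824 on control 2, a scaled signal of 2.90 ± 0.31 (SD, n = 2), and was bright on its single probe. Cd34, the sialomucin of progenitors and endothelium, gave 13856 and 12816 (3.09 ± 0.04), and its second probe 9471 and 9719. Flt3, the receptor that marks lymphoid-primed progenitors, gave 8299 and 8556 (2.43 ± 0.07), but its other probes gave 4533 and 4442, and 560.1 and 617. Ly6a gave 2094 and 2484 (0.55 ± 0.22) and was moderate. The defining genes of the label were therefore all measured, 3 of 4 of them in the bright band, and the largest difference between the arrays was the 1.35-fold of Kit.

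Of 29 measured surface proteins of the gate and of stem cells, 12 were bright, 15 moderate, 1 lower and 1 split, with a median rank of 86.8 among all genes on a scale where 100 is the brightest. By the median probe of each gene the rank was 80.1 and 7 were bright. Cd47, the ligand that restrains phagocytosis, gave 43668 and 35286, and Cxcr4, the receptor that holds progenitors in the marrow, gave 37663 and 28565. Procr, which marks stem cells as the protein EPCR, gave 8009 and 5543 and was bright on both arrays. The moderate genes included Fgd5, used to mark stem cells, at 2033 and 2748. Slamf1, which encodes the stem cell marker CD150, was the one lower gene, at 166 and 109, and Selp, an adhesion protein, was split at 472 and 326.

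Transcription factors of stem and progenitor cells were nearly all read above the median probe. Of 39, 11 were bright, 26 moderate, 1 lower and 1 split, and none was at the dim end. Myb, needed for definitive blood formation, gave 36359 and 25464. Lmo2 gave 29626 and 23258, and its partner Tal1, which builds the same DNA-binding complex, 18575 and 12531. Meis1, a homeodomain cofactor of Hox proteins, gave 17989 and 13433. Gata2, Erg, Fli1, Runx1, Gfi1, Cebpa and Mecom were moderate, with Runx1 at 1675 and 1362 and Mecom at 2526 and 1769. Id2, an inhibitor of E proteins that is used later in lymphoid and myeloid differentiation, was the lower gene at 209 and 100.4, and Prdm16 was split at 385 and 322.

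The Hox genes, which pattern the body axis and of which a subset acts in stem cells, differed by cluster. None of the 40 was bright, 11 were moderate and 12 were at the dim end, with a median rank of 30.2. Of 11 HoxA genes 7 were moderate, led by Hoxa9 at 4135 and 3156, Hoxa7 at 1911 and 1833, and Hoxa3 at 1332 and 923. Of 10 HoxB genes 3 were moderate, namely Hoxb3 (1950.3 and 1350), Hoxb4 (1734 and 999.5) and Hoxb5 (1020.5 and 668). No gene of the 9 in HoxC or the 9 in HoxD was moderate. In HoxD 6 were at the dim end, and Hoxd9 gave 7.81 on control 1 and 806 on control 2. The cluster medians of the rank were 57.1 for HoxA, 37.5 for HoxB, 28.5 for HoxC and 9.53 for HoxD. Genes read above the median probe on both arrays lay in the clusters HoxA and HoxB, while HoxC and HoxD held 1 split gene each. The remaining moderate symbol, Hoxa11as, is an antisense transcript.

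Receptors for cytokines and growth factors were read almost throughout. Of 30, 7 were bright (4 by the median probe), 22 moderate and 1 lower. Csf3r, the receptor for G-CSF, gave 49855 and 58451, and Csf1r, that for M-CSF, 19713 and 20112. Csf2rb, the chain shared by the receptors for IL-3, IL-5 and GM-CSF, was moderate at 2596 and 2844. Epor, the erythropoietin receptor, gave 1436 and 723, and Il7r, which marks lymphoid progenitors, 384 and 428. Il15ra stood highest, at 95458 and 103786, on 1 probe, while its other probe gave 2734 and 3109.

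Polycomb proteins, which silence developmental genes through chromatin and include Ezh1, the gene knocked out on the study's other arrays, were nearly all above the median probe. Of 30 core subunits 7 were bright (4 by the median probe), 22 moderate and 1 lower. Ezh1, a histone methyltransferase, gave 2658 and 2620.2 in these control cells (0.76 ± 0.03) on its brightest probe. Its other probes gave 1573 and 1368, 421 and 311, and 414 and 301. The paralog Ezh2, typical of dividing cells, gave 9443 and 6433. Suz12 and Eed, the partners of both, gave 7390.2 and 5514, and 3988 and 2704. The histone-binding Rbbp7 and Rbbp4 stood highest, at 31482 and 21941 for Rbbp7. Cbx8 was the lower subunit, at 68.7 and 26.4, whereas Cbx2, Cbx6 and Cbx7 were moderate or bright.

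Genes of division and inhibitors of division were both read above the median probe in most cases. Of 34 proliferation genes 16 were bright, 17 moderate and 1 lower. Mcm6 and Mcm7, subunits of the replicative helicase, gave 32797 and 28036, and 29974 and 26595. Birc5, a mitotic protein, gave 30199.9 and 28238, and Mki67, the usual marker of cycling cells, 12211 and 10311. Ccne2 was the lower gene at 52.3 and 15.6. Of 21 genes of quiescence and cell cycle inhibition 4 were bright, 14 moderate, 2 lower and 1 at the dim end, and by the median probe of each gene 1 was bright. Cdkn1b gave 8984 and 8055 and Cdkn1c, the p57 inhibitor linked to stem cell quiescence, 1654 and 1223. Cdkn2a, which encodes p16 and p19ARF and is a classic polycomb target, was at the dim end at 7.49 and 56.6, and Cdkn2b was lower at 25.5 and 47.2.

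Immediate early genes, which are induced within minutes by stress and growth signals, held no bright member. Of 21, 8 were moderate, 11 lower and 2 split. Jund was the highest at 2884 and 2232. Fos was lower, at 15.4 and 21.1, as was Junb at 251 and 237, while Egr1 was split at 531 and 272. Among 21 genes of apoptosis and survival, Mcl1 (9898 and 8182) and Bcl2 (8615 and 8295), both inhibitors of cell death, were bright (1 bright by the median probe), 16 were moderate, 2 lower and 1 split.

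Families of protein synthesis and energy supply had median ranks well above that of all genes. Of 88 genes with cytoplasmic ribosomal protein symbols 82 were bright, with a median rank of 98.4. Rpl18 gave 118686 and 84611, and Rps16 112904 and 94829.6. The 6 that were not bright were Rpl3l, Rpl10l, Rpl39l, Rpl7l1, Rps4y2 and Rps19bp1, the last of which is a binding protein and no ribosome subunit. Rpl3l, the paralog used in heart and skeletal muscle, was at the dim end at 7.66 and 10.7. Rpl10l, a testis paralog, was lower at 46.7 and 119.9. Of 76 mitochondrial ribosomal proteins 28 were bright and 48 moderate. Translation factors were bright in 37 of 66, among them Eif5a at 49018 and 45956 and Eef1a1 at 50827 and 42603, while Eef1a2, the neuronal and muscle paralog of Eef1a1, was at the dim end at 7.88 and 10.8.

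Respiratory chain and ATP synthase genes were bright in 69 of 90. Atp5a1, the catalytic-core subunit of ATP synthase, gave 44820 and 34942. Cox7b2 and Cox8c, isoforms of testis, were at the dim end, Cox8b was lower at 60.2 and 61.8, and the muscle isoforms Cox7a1 and Cox6a2 were moderate at 343 and 373 and at 293 and 630.3. All 13 mitochondrially encoded protein genes, a list added after the data were seen, were bright, with COX3 at 102240 and 75276. In a set of 23 paralog pairs compiled after some of these values were seen, each with a broadly used gene and one used mainly in testis, muscle, brain or another setting, 21 of 22 broad genes were bright. Of the 23 restricted genes 1 was bright, Cox6b2 (14089.9 and 11656), 9 were moderate, 8 lower and 5 at the dim end. Ldhc, the testis lactate dehydrogenase, gave 92.5 and 51.3, and Pgk2, the testis phosphoglycerate kinase, 27.1 and 165.

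Other housekeeping families were mostly bright or mostly moderate. Glycolysis genes were bright in 12 and moderate in 10 of 22, with Gapdh at 87586 and 79140.1 and Ldha at 42314 and 37692. Proteasome subunits were bright in 27 of 40, splicing proteins in 41 of 68, chaperones in 25 of 71 and DEAD and DEAH box helicases in 10 of 54. Chaperones and these helicases were mostly moderate, with 37 and 42 genes. Of 61 histone genes 33 were bright, among them Hist1h4i at 202300 and 183152, and 1, Hist1h1d, was at the dim end at 7.98 and 12.7. Histone genes are near copies of each other, so their probes may share targets. Common reference genes were bright in 19 of 23, and the other 4, among them Tfrc, Tbp and Gusb, were moderate. Of 5 genes of X inactivation and the Y chromosome, Eif2s3y was bright (7359.5 and 5556), Ddx3y, Uty and Kdm5d were moderate, and Xist was lower (117 and 165). Of 5 structural RNAs, likewise added after the data were seen, 4 were bright (Rn18s at 207510 and 160548), and Terc, the RNA of telomerase, was lower at 184 and 302.

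Antigen presentation genes were bright in 14 and moderate in 4 of 18. The class I genes H2-D1 and H2-K1 gave 72584 and 76531, and 53130.3 and 53379. Several genes of the class II route were bright as well, with H2-Ab1 at 14254 and 15565, Cd74, the invariant chain, at 12223 and 11725, and their activator Ciita at 15618 and 22942. Class I genes of the mouse are close in sequence, and which of them a probe reads was not tested.

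Among markers of the neutrophil lineage, the primary granule genes of precursors were bright and the later granule genes were moderate, split or lower. Itgam and Anxa1, which mature cells use, were bright as well, but each on 1 probe only. Anxa1 gave 11251 and 8791 on its brightest probe and 1482 and 1678 on the other, and the probes of Itgam are given below. In RNA of a bulk sample, fewer cells of a type and less RNA per cell cannot be told apart. Among 25 neutrophil markers 7 were bright (5 by the median probe), 12 moderate, 2 lower and 4 split. The enzymes of primary granules, made early in the lineage, were bright: Mpo gave 36605 and 39561, Ctsg 22441 and 23076, Elane 21339 and 20116, and Prtn3 9170 and 10949.8. The proteins of secondary and later granules were moderate, split or lower, with Camp at 1154 and 2063, Ngp at 499.6 and 699, Ltf at 251 and 402, and Mmp9, the lowest of the list, at 27.7 and 27.2. Ly6g, which marks mature neutrophils, gave 173 and 385 and was split. The monocyte, macrophage and dendritic list held 5 bright, 13 moderate, 3 lower and 1 split of 22, or 2 bright by the median probe, where the median rank was 67.6 in place of 73.5. It included Irf8, the factor of monocyte and dendritic commitment, bright at 6515 and 8948, and Cd14, lower at 98.3 and 258. Siglech, of plasmacytoid dendritic cells, was bright at 66852 and 72486 on 1 of its 3 probes, and the other 2 read no higher than 91.2.

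Lymphoid lists had the lowest median ranks of the lineage lists. Of 19 B-lineage markers 3 were bright (15.8%, against 11.4% of all genes), 4 moderate, 10 lower and 2 split. Their median rank was 41.0. Dntt, the terminal transferase of early lymphoid progenitors, was bright at 31119 and 26357. Vpreb1 of the surrogate light chain gave 522 and 480.1, whereas Cd79a gave 143 and 172 and Ebf1 52.8 and 184. Cd79b was bright, at 7274 and 6161. The recombinase genes Rag1 and Rag2 were both lower, Rag1 at 22.1 and 13.2. Of 25 T and NK markers 1 was bright (4%), 11 moderate, 12 lower and 1 split, with a median rank of 47.2. Cd3e gave 354 and 455, Cd8a 134 and 133, and Ncr1 of NK cells 135 and 156, while Cd4 was moderate at 2386 and 3063. Cd22 and Prf1, the bright members outside Dntt and Cd79b, were each read by 1 probe.

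The erythroid list had the highest median rank of the lineage lists, 93.0, with 13 of 21 bright, 6 moderate, 1 split and 1 at the dim end. The adult globins Hba-a2, Hba-a1 and Hbb-b1 gave 156718 and 80678, 100500 and 71263, and 71905 and 35796. A further globin, Hbb-b2, gave 16353 and 22601. Klf1 and Gata1, the transcription factors of the lineage, gave 11780 and 7869, and 10226 and 6503. Hbb-bh1, an embryonic globin, was at the dim end at 8.57 and 11. Of 20 megakaryocyte genes 4 were bright, among them Pf4 at 15014 and 8563, and 9 moderate, among them Itga2b at 2122 and 1675. Gp5 and Thbs1, of platelets, were lower. Of 20 mast cell, basophil and eosinophil genes 2 were bright, 11 moderate, 5 lower and 2 split.

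Genes of the marrow niche and of other organs were spread over the bands. Of 24 endothelial and stromal genes 2 were bright, 10 moderate, 7 lower, 4 at the dim end and 1 split, with a median rank of 46.0 and a dim-end share of 16.7% that is near the 14.0% of all genes. The bright ones were Angpt1 (15244 and 11572) and Tie1 (11079 and 9946), which blood progenitors are known to transcribe too. The endothelial cadherin Cdh5 gave 8.02 and 23.5, Pdgfra 8.71 and 10.9, Lum 6.80 and 9.67 and Col1a1 50.05 and 73.9, while Kdr was moderate at 1126 and 1894. Of 35 genes of other organs 1 was bright, 7 moderate, 14 lower, 7 at the dim end and 6 split, with a median rank of 33.2. Alb of liver gave 12.1 and 58.0, and Csn2 of mammary gland 7.78 and 10.9. The bright exception was Snap25, a synaptic protein, at 404734 and 267251 on its 1 probe.

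**Figure D2:**
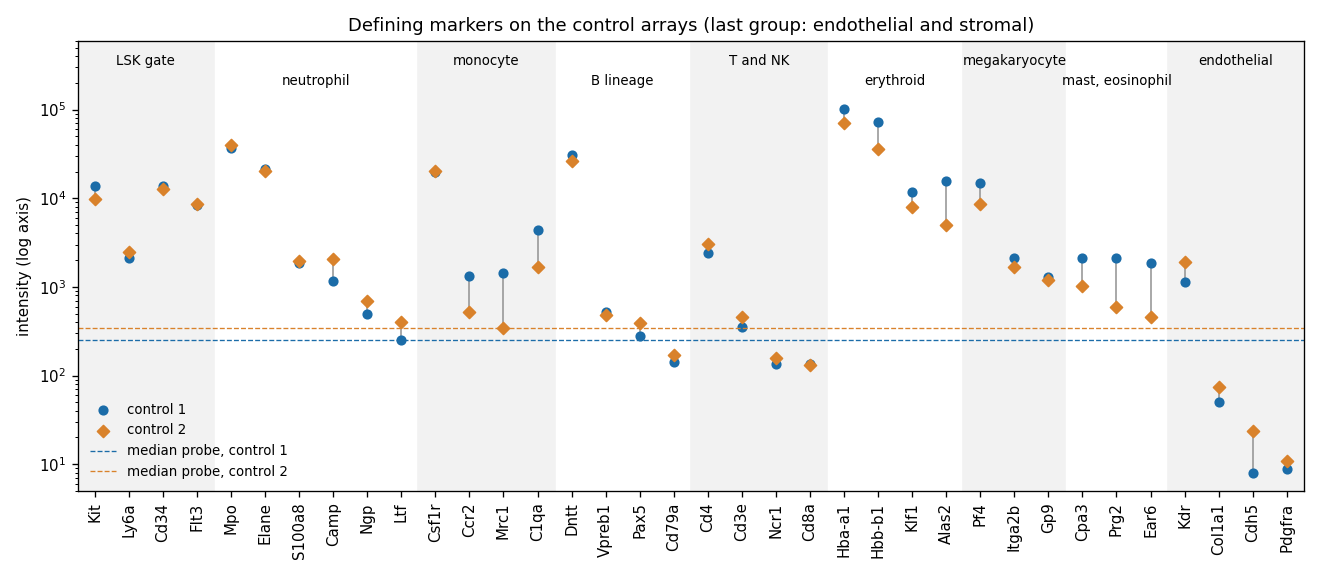
Intensity of the defining markers of LSK cells and of other cell types on control 1 (circles) and control 2 (diamonds), on a log axis, with the median probe of each array as a dashed line. Kit, Ly6a, Cd34 and Flt3 lie above the median probe and Cd79a, Cdh5 and Pdgfra below it on both arrays. The erythroid, macrophage and eosinophil markers Alas2, Mrc1 and Ear6 are lower on control 2, while Csf1r, drawn with Mrc1, is not (19713 and 20112).

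Families of sensory receptors and epithelial proteins had low median ranks. Of 1100 odorant receptors 1 was bright, 48 moderate, 484 lower, 494 at the dim end and 73 split, with a median rank of 16.5. The bright one, Olfr821, gave 25173 and 36882 on its only probe. Of 262 vomeronasal receptors none was bright and 98 were at the dim end. Median ranks were 17.7 for 38 taste receptors, 23.5 for 61 defensins, 24.05 for 47 protocadherins, 30.5 for 96 cytochrome P450 genes, 30.8 for 44 collagens, 31.3 for 104 keratins and keratin-associated proteins and 33.2 for 183 ion channel genes. The developmental factors of the Fox, Sox, Pax and Pou families had a median rank of 29.5, with 9 of 91 bright (2 by the median probe) and 27 at the dim end. Zinc finger genes named Zfp ranked at 61.1 over 364 genes, and solute carriers at 49.6 over 356. The 11 type I interferon ligands, secreted antiviral signals, held 1 moderate gene and no bright one. When all symbols were grouped by the letters before their first digit, 256 groups held at least 10 genes. Rps, Rpl, Psmb, Hist, Ndufb, Ndufa, Srsf and Mcm had the highest median ranks, from 98.3 down to 90.6. Sprr, Ces, Cypt, Prl, Lcn, Ceacam, Pax and Serpinb had the lowest, from 8.43 up to 16.5.

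The brightest single signals each rested on 1 probe of their gene. The 24 brightest named genes spanned 331945 to 467298 on control 1 and 311761 to 411130 on control 2, and none differed by more than 1.30-fold between the arrays. They included Hexim2, an inhibitor of transcription elongation, at 467298 and 399202, and Ubtf, a factor of ribosomal RNA synthesis, at 454694 and 385493. They also included genes known from other tissues, such as Oprm1, the mu opioid receptor, at 401292 and 373176, Lhx6, a factor of interneurons, at 364653 and 352376, and Tacr2, a neurokinin receptor, at 348381 and 333515. Of the 24, 20 had more than 1 probe, and in all 20 the second probe was more than 16-fold dimmer, by 612-fold at the median. The other probes of Hexim2 read between 247 and 305, those of Oprm1 between 7.71 and 422, and those of Lhx6 near the floor of the array, down to 7.94 and 10.3. Itgam, the integrin CD11b of mature myeloid cells, belonged here, at 344759 and 341680 on 1 probe against 1103 and 1735, and 484 and 1653, on the others. By the median probe 18 of the 24 were not bright, and 1 of them, Lhx6, was at the dim end.

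**Figure D3:**
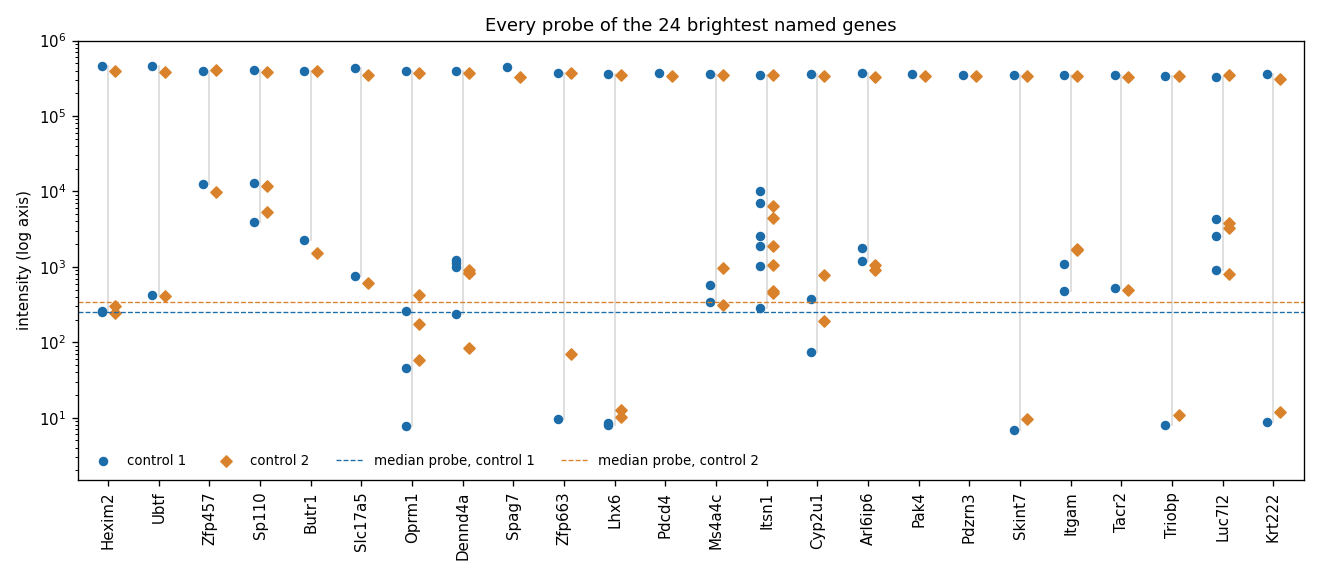
Intensity of every probe of the 24 brightest named genes on control 1 (circles) and control 2 (diamonds), on a log axis, with the median probe of each array dashed. The brightest probe of each gene reads at least 331945 on control 1 and 311761 on control 2, while the other probes of the 20 genes that have them lie at least 16-fold lower.

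The gap between a gene's first and second probe narrowed further down the scale. Its median was 417-fold among the brightest 50 genes, 33.8-fold among the brightest 500, 3.69-fold over the bright band and 2.60-fold over all 7050 genes with more than 1 probe. All of the brightest 100 genes were read by probes whose names begin with A_55, which stood for 56.4% of all genes. For genes with several probes the median span between the brightest and dimmest was 1.79 log2 units, against a median difference between the 2 arrays of 0.38. The span covers all probes of a gene and the difference only its brightest probe on 2 arrays, so their sizes are not directly comparable. The array difference also depended on signal, with a median of 1.11 over all genes of the lower band. Of 1363 bright genes with several probes, 530 (38.9%) were also bright by their median probe, against 2764 of 3666 moderate genes and 256 of 258 dim-end genes. A gene stood at its brightest probe, so its median probe could hardly rank higher. The dim-end count was thus all but fixed in advance, and these shares do not compare how stable the bands are. By the median probe the ribosomal proteins had a median rank of 98.9, the erythroid genes 94.7 and the odorant receptors 17.3.

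The agreement of the 2 control arrays depended on signal level. Over all genes Pearson's r was 0.943 and Spearman's rho 0.9502, a description across genes, which are not independent replicates. Of 24287 genes 6514 (26.8%) differed by more than 2-fold, 6002 (24.7%) of them higher and 512 (2.11%) lower on control 2. Among the bright genes, which had to pass a limit on both arrays, r was 0.973 and 24 of 2763 (0.869%) were more than 2-fold apart. In the brightest decile of genes the median difference was 1.21-fold, with 1.56% of genes over 2-fold apart, or 3.01% when genes were ranked by control 2. The share rose with falling signal to 2.63%, 4.03%, 5.68%, 12.5%, 25.6%, 42.4%, 68.1% and 87.2% in the second dimmest decile, and was 18.5% in the dimmest.

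The disagreement had a direction. In the second dimmest decile the median difference was 2.42 log2 units in favour of control 2, with median intensities of 7.96 on control 1 and 43.6 on control 2. In the dimmest decile both arrays sat at their floors, at 7.81 and 11.1. Control 1 had 11260 probes (20.2%) within 2-fold of its lowest value and control 2 had 5529 (9.93%). Above the middle of the scale the difference turned slightly the other way, to a median of -0.25 in the ninth decile. The shift depended on the scaling: the median difference of all genes was 0.14 as scaled, -0.34 under median centring and -0.14 under quantile normalization.

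**Figure D4:**
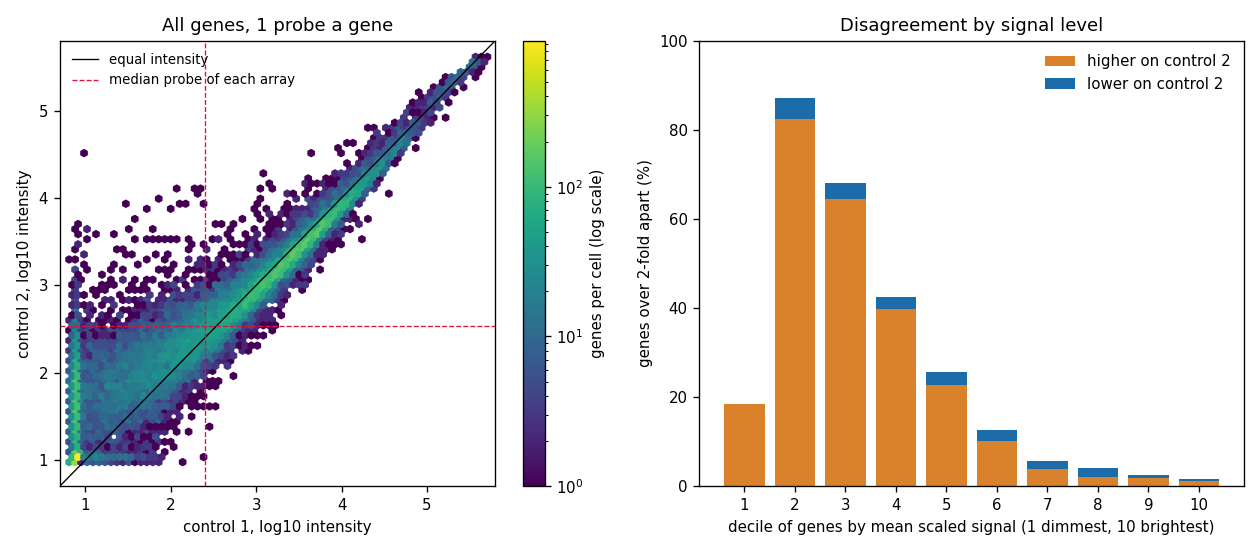
Left, log10 intensity of all 24287 genes on control 1 (x) and control 2 (y), coloured by the number of genes per cell, with equality as a solid line and each array's median probe dashed. Right, percent of genes over 2-fold apart after scaling, by decile of mean signal, split by direction: the share is 1.56% in the brightest decile and 87.2% in the second dimmest, and most of it is higher on control 2.

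Families at the low end carried this direction with them. Of the odorant receptors 706 of 1100 were more than 2-fold higher on control 2 and 6 were lower. Of the vomeronasal receptors 193 of 262 were higher and none lower. Over all genes the shares were 24.7% higher and 2.11% lower. In the dimmest decile 450 of 2428 genes were over 2-fold higher, in the second dimmest 2004 of 2429 and in the third 1565 of 2429. The median differences of the odorant and vomeronasal receptors were 1.76 and 2.37 log2 units, and 0.36 and 0.87 after quantile normalization. Beyond genes of like signal they were 0.29 and 0.78. No cytokine receptor, glycolysis, splicing, antigen presentation or mitochondrial ribosomal gene was more than 2-fold apart, against 26.8% of all genes. From the eighth to the brightest decile that share fell from 4.03% to 1.56%.

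A few lineage lists differed between the control arrays while lying above the floor. Of 21 erythroid genes 18 were lower on control 2, against 10664 of 24287 over all genes. In the ninth and the brightest decile most genes were lower as well, with 18.0% and 26.9% of genes higher on control 2. The median difference of the erythroid genes was -0.59, and lay between -0.54 and -1.08 under the other scalings. Alas2, the first enzyme of heme synthesis in red cells, was 3.04-fold lower, and Hbb-b1 1.93-fold lower. The globin Hbb-b2 went the other way, at 16353 on control 1 and 22601 on control 2. Ermap, a blood group antigen, was also higher on control 2 on its brightest probe, 14572 against 42271. It was the one member over 2-fold higher, but its other probes were lower on control 2, at 11838 and 7063 and at 3910.3 and 2655. In the mast cell, basophil and eosinophil list 7 of 20 genes were more than 2-fold lower on control 2, against 2.11% of all genes. They were the eosinophil granule genes Prg2 (2108 and 591), Epx, Ear2 and Ear6 (1877 and 454), the eotaxin receptor Ccr3, the mast cell protease Cpa3 (2133 and 1015) and the IgE receptor chain Ms4a2. The list's median difference was -0.51, and between -0.57 and -0.99 under the other scalings. In the monocyte and macrophage list 5 of 22 were more than 2-fold lower, among them the macrophage genes Mrc1 (1419 and 344), C1qa (4335 and 1684), Emr1 (3309.9 and 1578) and Vcam1 (9734 and 3111), and 3 were higher, Itgax, Cd14 and Cd209a. The median difference of that list was 0.13, and the second probe of Emr1 gave 924 and 983.

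The neutrophil list ran the other way, with 19 of 25 genes higher on control 2, against 13623 of 24287 over all genes. The list's median difference was 0.21, which was 0.36 beyond genes of like signal and -0.28 to 0.21 under the other scalings. Its primary granule genes Mpo and Elane were 1.13-fold and 0.982-fold on control 2 relative to control 1. Kit was 1.35-fold lower on control 2, Klf1 1.44-fold lower and Myb 1.37-fold lower. Of 39 stem and progenitor factors 36 were lower, against 10664 of 24287 over all genes, and the list's median difference was -0.33. That median was -0.24 to -0.81 under the other scalings, and was -0.12 beyond the median difference of genes of like signal. The corresponding values were -0.46 for the erythroid list and -0.66 for the mast cell list. Whether the 2 sorted samples held different numbers of such cells was not tested.

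The bright and moderate genes with the 10 largest differences in each direction were then listed. Lower on control 2 were Fam132a (16256 and 3413), Glce, Ear6, Mrc1, Igf1, Axl (3454 and 907), Sdccag3, Serinc1, Cpsf3l and Prg2, of which Axl is a receptor that macrophages use to clear dead cells. Those higher on control 2 included Krtap16-10 (271 and 2618), Ermn, Eci2, Fcgr4 (736 and 5453), Speer8-ps1, Vmn1r65, Lao1, Krtap16-7 and Cdh26. Eci2, a mitochondrial isomerase, gave 4296 and 34294 on its brightest probe, and 4795 and 3134 on its other probe, so that its 2 probes disagreed in direction. Ermn did so too, at 505 and 4336 on its brightest probe and 1301 and 820.0 on the other, and 1 of the 5 probes of Igf1 was higher on control 2. Stmn1, a microtubule regulator, did likewise, at 8557 and 39196 on one probe and 15296 and 13429 on the other.

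The promoters of the bands differed in base composition. Mouse promoters are known to fall into CpG-rich ones, where CG pairs are kept near the number that base content predicts, and CpG-poor ones, and the former are typical of genes used in most tissues. Windows of 300 bases, 250 before to 50 after the first listed start of a gene in RefSeq (build GRCm38.p6), were matched to 17153 genes. A window was counted as CpG-rich when its CG pairs reached 0.6 of the expected number. Such windows made up 73.1% of bright, 67.8% of moderate, 29.5% of lower and 17.7% of dim-end genes, against 50.1% of all matched genes and 36.5% of all 27025 promoters of the table. The letters TATAAA on either strand stood in 8.78%, 7.27%, 16.7% and 24.3%, against 12.6% of matched genes and 14.2% of the table, and CCAAT on either strand in 40.9%, 38.9%, 36.6% and 40.5%, against 38.8% and 37.9%. The CpG-rich share thus separated the upper from the lower bands, the TATAAA share ran the other way and the CCAAT share hardly moved. The median GC content of the windows was 60.3% in bright, 60% in moderate, 53% in lower and 47% in dim-end genes. TATAAA holds only A and T, and how far base content alone sets its share was not tested.

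The promoters of 5 genes show these kinds side by side, each 5′ to 3′ along the gene, with every CG pair in capitals. Kit (chr5:75574737-75575036, plus strand, the first of 2 listed starts) and Rps16 (chr7:28350439-28350738, plus) are CpG-rich promoters of bright genes. Kit is a borderline case, with CG pairs at 0.62 of the expected number, just over the limit of 0.6. Rps16 reaches 0.86, and the median of bright genes is 0.79. Mpo (chr11:87793534-87793833, plus) and Hbb-b1, now Hbb-bt (chr7:103813874-103814173, minus), are CpG-poor promoters of bright genes. Olfr1317 (chr2:112141697-112141996, plus), an odorant receptor read at the floor of both arrays, at 6.45 and 9.49, holds no CG pair.
Kit: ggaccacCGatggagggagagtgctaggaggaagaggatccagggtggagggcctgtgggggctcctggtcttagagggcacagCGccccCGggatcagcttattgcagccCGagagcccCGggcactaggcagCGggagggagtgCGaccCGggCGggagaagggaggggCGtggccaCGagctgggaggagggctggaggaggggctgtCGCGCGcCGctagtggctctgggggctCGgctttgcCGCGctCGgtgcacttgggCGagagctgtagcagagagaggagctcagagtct
Rps16: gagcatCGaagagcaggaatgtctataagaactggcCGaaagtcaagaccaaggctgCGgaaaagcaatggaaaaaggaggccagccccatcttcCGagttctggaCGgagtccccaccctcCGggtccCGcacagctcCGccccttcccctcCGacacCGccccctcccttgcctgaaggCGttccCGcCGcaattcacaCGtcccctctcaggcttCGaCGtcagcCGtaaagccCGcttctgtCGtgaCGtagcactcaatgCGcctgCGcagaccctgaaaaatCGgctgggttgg
Mpo: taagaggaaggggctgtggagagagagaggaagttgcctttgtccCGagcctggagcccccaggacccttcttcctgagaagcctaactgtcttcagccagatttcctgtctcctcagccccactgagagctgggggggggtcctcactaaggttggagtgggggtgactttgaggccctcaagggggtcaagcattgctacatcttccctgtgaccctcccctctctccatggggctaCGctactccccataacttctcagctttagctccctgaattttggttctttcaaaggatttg
Hbb-b1: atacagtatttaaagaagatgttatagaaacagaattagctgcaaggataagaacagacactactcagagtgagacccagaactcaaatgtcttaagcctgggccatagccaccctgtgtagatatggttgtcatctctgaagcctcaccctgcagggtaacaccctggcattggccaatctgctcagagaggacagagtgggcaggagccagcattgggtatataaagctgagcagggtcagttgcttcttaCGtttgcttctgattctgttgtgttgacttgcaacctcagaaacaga
Olfr1317: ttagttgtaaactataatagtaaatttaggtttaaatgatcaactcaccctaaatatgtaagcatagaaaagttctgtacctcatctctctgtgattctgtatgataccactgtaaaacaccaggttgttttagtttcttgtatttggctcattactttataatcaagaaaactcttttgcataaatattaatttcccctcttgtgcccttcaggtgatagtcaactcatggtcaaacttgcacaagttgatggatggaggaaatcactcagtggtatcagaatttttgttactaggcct

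The Kit window holds 20 CG pairs and that of Rps16 23, whereas those of Mpo and Hbb-b1 hold 2 and 1. None of the 22 neutrophil promoters matched was CpG-rich and 1 of 14 erythroid promoters was, although both lists held bright genes, while 0 of 17 mast cell promoters were. Splicing proteins were CpG-rich in 55 of 58, cytoplasmic ribosomal proteins in 56 of 64, polycomb subunits in 22 of 25 and stem and progenitor factors in 19 of 30. Immediate early genes, none of them bright, were CpG-rich in 15 of 18, and odorant receptors in 4 of 914.

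**Figure D5:**
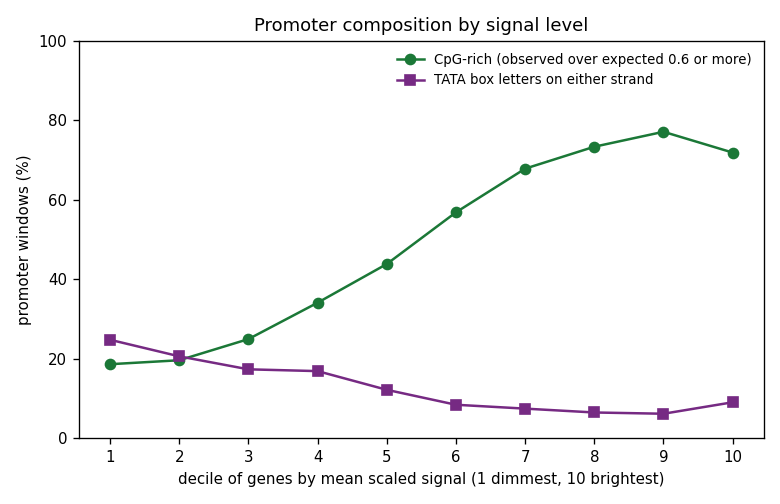
Percent of 300-base promoter windows that are CpG-rich (circles) or hold TATAAA on either strand (squares), by decile of genes ranked by mean scaled signal on the control arrays. The CpG-rich share is 18.6% in the dimmest decile, 77.1% in the ninth and 71.8% in the brightest, and the TATAAA share is 24.8%, 6.17% and 9.05%.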

How the data were processed

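RNA of 2 control LSK samples was read on 1-colour Agilent arrays. The deposited intensities were used as they stand in the authors' table, with Agilent Feature Extraction named per the submitters' processing notes whose version is not given in these sources. Whether background was subtracted is not stated. The 2 further sample columns of that table, those of the knockout arrays, were not used. Gene symbols came from the authors' table of fold changes, whose ratio values were not used. The authors' deposited value table, on a log2 scale, was set against the intensities and then left out, as given in the closing section. Depth has no meaning for arrays, and their number limits the precision.

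Intensities were put on the log2 scale, minus each array's 75th percentile, and a gene was its named probe with the highest mean. Spots of weak signal were kept. Bands, differences between arrays, medians of lists and promoter composition were computed with Python 3.11.15, pandas 2.3.3 and numpy 2.4.6, and no test was run. Code for bands and differences was tested on simulated data with known answers. The genes, the 21 lists and the 23 families by symbol were chosen with earlier results of these data known. The rule named Kit, Ly6a, Cd34 and Flt3, fixed lineage markers, the 24 brightest named genes without clones, predicted genes or ribosomal proteins, the 4 brightest and up to 3 dim-end genes of each list, and the 10 largest differences in each direction. Other genes named were chosen after their values were seen. Some genes that the rule names are not reported here. Alternatives were other band limits, the median or a random probe of a gene, 1 array alone, and quantile, median or no scaling.

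Amplification of small RNA amounts and a dye that couples to guanine, per the labels' protocols, may both shape a probe's intensity, and their part was not tested.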

Additional observations from a re-analysis of the deposited data

How the results depend on the processing

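Band counts followed their limits. With bright set at the top 5% and dim at the lowest 10% of probes, 1243 genes were bright and 1109 at the dim end, and with 20% and 30%, 5812 were bright, 4377 lower and 5624 at the dim end. From 1 array alone bright genes numbered 2981 to 3085, moderate 10353 to 10445, lower 6057 to 6236 and dim-end genes 4625 to 4792. The share of genes over 2-fold apart was 22.7% after quantile normalization, 28.3% with median centring, 14.8% with an offset of 50, 17.6% among genes above the 20th percentile, 27.5% by the median probe and 29.4% over all probes. In the brightest decile it was 7.12% with median centring, 3.01% when genes were ranked by control 2 and 2.53% over all probes. Pearson's r was 0.948 after quantile normalization, 0.965 with the offset, 0.946 above the 20th percentile, 0.939 by the median probe and 0.929 over all probes. CpG-rich promoters made up 69.0% of bright genes under the stricter limits and 19.9% of dim-end genes under the wider ones. Of 46 list medians 31 moved by the median probe, at most by 6.67 points (the LSK surface list, to 80.1), and 19 without control 1, at most by 7.77 points (T and NK markers, to 39.4). Signal near the floor limits the dim end. No paired analysis was possible because only 1 group was described.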

Other observations

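Probes without a protein-coding symbol were read as well. Of 16250 probes described as lincRNA, long intergenic non-coding RNA, 727 (4.47%) were bright and 2148 (13.2%) at the dim end, with 5315 moderate. Probes of RefSeq mRNAs were bright in 10.8% of 26430, and probes with no description in 21.4% of 3666, against 9.14% of all probes.

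By chromosome, 21902 genes could be placed. Chromosome 11 had 14.9% of its 1653 genes bright and 9.01% at the dim end, and the X chromosome 8.93% of 873 bright and 20.7% at the dim end, with a median rank of 40.2. The Y chromosome had 1 bright gene of 22.

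The deposited value table gave values for 16370 of 55677 probes. Matched by probe name to the intensities, its columns correlated at 0.089 for control 1 and 0.069 for control 2 over probes. Only 3.74% of its value pairs lay within 0.02 log2 units of those of the probe of the same name, while 100% lay within 0.02 of those of some probe. The rows of that table were therefore not named here, and its median was -3.34 for control 1 and -2.54 for control 2.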
